A study of Mus musculus with 9 samples.

Results

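Gpx8, Samd3, Ddx43, Kcnj8, Cldnd2, Clnk, Gfra2, Clip4 and Zdhhc15 are 9 of the 19938 genes measured in circulating mouse monocytes. They were picked by symbol in the array annotation as the largest rises in Ccr2-/- over wild type monocytes, so their difference between these genotypes is a description and carries no test here. Ordered by that rise on the log2 scale, the genes took ranks 2 to 10 within a filtered set. The set held genes with a limma adjusted p under 0.05 and every Ccr2-/- array above every wild type array, predicted genes left out. Genes outside this filter were not ranked, and some of them rose more. Each of them was read through 1 transcript cluster, a set of probes spread along one gene.

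Monocytes came from the blood of tumor-free Balb/c mice aged 14 to 18 weeks and their RNA was hybridised to Affymetrix Mouse Gene 1.0 ST arrays. The genotypes were Ccr2-/-, which lacks the chemokine receptor CCR2 in every cell, Ccl2-/-, which lacks its ligand CCL2, and wild type, and both mutant lines were backcrossed to Balb/cJ from time to time. Each genotype had 3 arrays, labelled as biological replicates, and each array held RNA pooled from 5 mice, so every p below measures the spread between pools and not between mice. Magnetic depletion removed cells bearing CCR3, MHC class II, Ly-6G, B220, CD8 or CD4, and CD11b-positive cells were then kept. No antibody against an NK cell marker is named among those used for depletion, although the study's definition of a monocyte requires the absence of NK1.1. As a check of the labels, Ccr2 had log2 intensities of 9.41, 9.44 and 9.47 in Ccr2-/- monocytes, 12.61, 12.73 and 12.93 in Ccl2-/- monocytes, and 13.26, 13.02 and 12.99 in wild type monocytes.

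Blood monocytes are phagocytes that leave the bone marrow partly through CCR2, and in the mouse they fall into Ly-6Chi cells, which carry CCR2, and Ly-6Clo cells, which patrol vessels. Natural killer (NK) cells are lymphocytes that kill infected or transformed cells, and mouse NK cells can carry CD11b, the marker used here for selection. Ncr1 encodes NKp46, an activating receptor found on NK cells and on some other innate lymphoid cells, and it was used here as the yardstick for the 9 genes. The genes themselves belong to unrelated families. Gfra2 is a co-receptor for the growth factor neurturin, Kcnj8 the pore of an ATP-sensitive potassium channel, Clnk an adaptor of immunoreceptor signalling, Gpx8 a peroxidase of the endoplasmic reticulum, Zdhhc15 a palmitoyltransferase, Ddx43 an RNA helicase, Clip4 a protein with microtubule-binding domains, Cldnd2 a membrane protein of the claudin fold, and Samd3 a protein with a sterile alpha motif.

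The purified cells carried both kinds of marker. The summed intensity of 15 measured pan-monocyte genes was 90788 to 97597 in Ccr2-/-, 107151 to 115730 in Ccl2-/- and 113750 to 117526 in wild type monocytes. The sum of 45 measured NK cell genes was 243148 to 252523 in Ccr2-/-, 174611 to 215669 in Ccl2-/- and 137990 to 150800 in wild type monocytes, so the 3 genotypes did not overlap in it. None of the NK cell genes had a mean intensity under 100 over the 9 arrays, but 19071 of all 19938 genes were also over 100, so this sets them apart little. In such bulk RNA a larger share of a cell type and more RNA of a gene per cell cannot be told apart. The array medians were 324.1 to 355.1, apart from Ccl2-/- replicate 1 at 430.8. The median log2 change of all genes was 0.08 in Ccl2-/- over wild type, 0.01 in Ccr2-/- over wild type and -0.08 in Ccr2-/- over Ccl2-/- monocytes.

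RefSeq promoter windows (GRCm38.p6) were found for 8 of the 9 genes, with Gfra2 not matched, and they are shown because these genes had the same order of genotypes. The place of Ccr2-/- above wild type in that order was fixed by the choice of the genes. In the 250 bases before each start, 4 motifs were searched on both strands: a T-box motif (GGTGTGA), a RUNX motif (TGTGGTT), an ETS motif (CAGGAAG) and a STAT motif (TTCNNNGAA). The windows below are those with a match, and the capitals mark it.
Samd3, chr10:26229457-26229706, plus strand: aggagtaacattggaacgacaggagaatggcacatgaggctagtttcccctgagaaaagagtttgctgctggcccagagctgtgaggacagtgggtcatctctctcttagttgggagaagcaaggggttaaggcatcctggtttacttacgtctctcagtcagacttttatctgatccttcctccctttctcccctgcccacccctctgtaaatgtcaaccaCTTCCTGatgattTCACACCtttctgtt
Gpx8, chr13:113046389-113046638, minus strand: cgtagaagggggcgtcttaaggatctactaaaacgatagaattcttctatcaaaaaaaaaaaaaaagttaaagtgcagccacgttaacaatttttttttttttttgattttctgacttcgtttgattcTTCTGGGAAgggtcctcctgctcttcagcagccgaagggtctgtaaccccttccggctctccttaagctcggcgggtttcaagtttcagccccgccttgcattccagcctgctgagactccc
Clnk, chr5:38876694-38876943, minus strand: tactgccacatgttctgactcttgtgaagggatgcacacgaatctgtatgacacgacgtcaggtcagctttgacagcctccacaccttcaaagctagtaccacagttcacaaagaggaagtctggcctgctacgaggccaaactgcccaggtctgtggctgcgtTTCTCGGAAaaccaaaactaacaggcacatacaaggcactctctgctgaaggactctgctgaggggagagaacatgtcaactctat
Cldnd2, chr7:43440566-43440815, plus strand: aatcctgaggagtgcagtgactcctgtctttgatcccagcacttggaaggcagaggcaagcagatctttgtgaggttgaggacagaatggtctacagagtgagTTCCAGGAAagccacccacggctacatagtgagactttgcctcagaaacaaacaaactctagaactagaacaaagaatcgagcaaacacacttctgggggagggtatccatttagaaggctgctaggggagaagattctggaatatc
The Samd3 window held the ETS motif and the T-box motif, both as the reverse complement of the letters above, beginning 28 and 15 bases before the start and not overlapping. The STAT motif began 122 bases before the start in Gpx8, 86 in Clnk and 147 in Cldnd2. Among 32851 mouse promoter windows, 7.02% held the STAT motif, 10.8% the ETS motif, 4.40% the RUNX motif and 3.33% the T-box motif. Of the 10 windows of these genes, 3 held STAT, 1 ETS, 1 T-box and 0 RUNX, which is a description of letters and says nothing of the factors.

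In every one of the 9 genes, all Ccr2-/- arrays lay above all Ccl2-/- arrays, and all Ccl2-/- arrays lay above all wild type arrays. Of all genes, 7.58% had every Ccr2-/- array above every Ccl2-/- array, and 9.43% had every Ccl2-/- array above every wild type array. For Ccr2-/- over wild type, the contrast that chose the genes, the share was 15.7%, and 4.91% of genes passed the test as higher; nothing is read from these.

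Gfra2 encodes the cell surface co-receptor through which neurturin acts on the kinase Ret. Its log2 intensity was 11.63, 11.57 and 11.67 in Ccr2-/-, 11.49, 11.43 and 11.11 in Ccl2-/- and 10.17, 10.30 and 10.23 in wild type monocytes. The Ccl2-/- arrays lay much nearer to the Ccr2-/- arrays than to wild type, with a gap of 0.09 below the lowest Ccr2-/- array and 0.81 above the highest wild type array. Kcnj8, the Kir6.1 channel pore, stood at 11.83, 11.67 and 11.68 in Ccr2-/-, 11.33, 11.30 and 10.71 in Ccl2-/- and 10.06, 10.42 and 10.26 in wild type monocytes. Cldnd2, whose function is little known, had 10.23, 9.993 and 9.998 in Ccr2-/-, 9.15, 9.48 and 9.04 in Ccl2-/- and 8.43, 8.62 and 8.85 in wild type monocytes. In Kcnj8 the Ccl2-/- arrays were spread most widely (SD 0.35, n = 3), with replicate 3 far below the others, while the Cldnd2 arrays of each genotype kept within 0.23 (SD, n = 3).

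Clnk is an adaptor of the SLP-76 family that couples immunoreceptors to their kinases in mouse NK cells and mast cells. It read 10.99, 10.74 and 10.88 in Ccr2-/-, 10.32, 10.31 and 9.95 in Ccl2-/- and 9.31, 9.46 and 9.53 in wild type monocytes. The 3 genotypes were spaced almost evenly, at means of 10.87 ± 0.12, 10.19 ± 0.21 and 9.43 ± 0.11 (SD, n = 3 arrays each) in Ccr2-/-, Ccl2-/- and wild type monocytes.

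Among the enzymes, Gpx8 is a glutathione peroxidase family member of the endoplasmic reticulum that uses cysteine in place of selenocysteine. Its log2 intensity was 12.04, 11.90 and 12.01 in Ccr2-/-, 11.25, 11.18 and 10.68 in Ccl2-/- and 10.31, 10.65 and 10.44 in wild type monocytes. Here Ccl2-/- replicate 3 came within 0.03 of the highest wild type array, so the groups only just failed to overlap. Zdhhc15 attaches palmitate to cysteines of its target proteins and had 11.58, 11.46 and 11.41 in Ccr2-/-, 11.13, 10.95 and 10.62 in Ccl2-/- and 9.97, 10.15 and 10.26 in wild type monocytes. Ddx43, a DEAD-box helicase known in humans as a cancer/testis antigen, had 9.88, 9.74 and 9.38 in Ccr2-/-, 8.79, 8.97 and 8.81 in Ccl2-/- and 7.96, 8.25 and 8.36 in wild type monocytes. Its Ccr2-/- arrays were the most scattered of the 9 genes (SD 0.26, n = 3), with replicate 3 the lowest. Ddx43 lies on chromosome 9, as Ccr2 does.

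Clip4 carries CAP-Gly domains, which bind microtubules. Its values were 10.76, 10.60 and 10.60 in Ccr2-/-, 9.94, 10.20 and 9.73 in Ccl2-/- and 9.07, 9.37 and 9.34 in wild type monocytes. Samd3 had 10.89, 10.58 and 10.58 in Ccr2-/-, 9.80, 10.05 and 9.63 in Ccl2-/- and 9.13, 9.15 and 9.33 in wild type monocytes. In both genes replicate 1 was the highest Ccr2-/- array and replicate 3 the lowest Ccl2-/- array.

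Ncr1 followed the same order on a narrower range, with 13.41, 13.38 and 13.35 in Ccr2-/-, 13.16, 13.11 and 12.96 in Ccl2-/- and 12.63, 12.73 and 12.70 in wild type monocytes. The arrays of a genotype were not interchangeable across the 9 genes. Replicate 1 was the highest Ccr2-/- array in 8 of them, replicate 3 the lowest Ccl2-/- array in 8, and replicate 1 the lowest wild type array in all 9. The NK cell sum was also highest in Ccr2-/- replicate 1, lowest in Ccl2-/- replicate 3 and lowest in wild type replicate 1. The sum of 15 T cell genes was 20578 in Ccr2-/- replicate 1 against 14732 and 8496 in the other Ccr2-/- arrays, 8886 to 12353 in Ccl2-/- and 11169 to 11810 in wild type monocytes. The part of these other cell types in the values of the 9 genes was not tested.

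**Figure D1:**
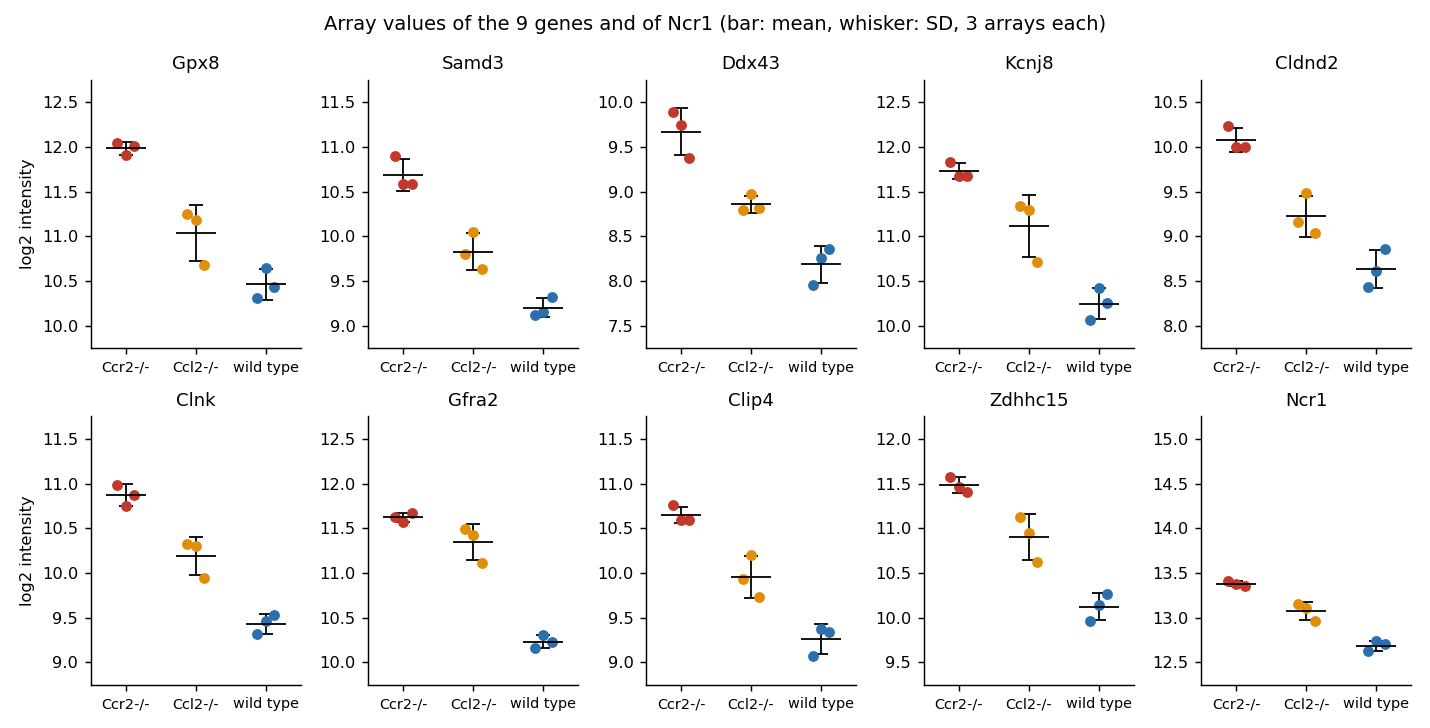
Log2 intensity (vertical axis) of the 9 genes and of Ncr1 on each array, by genotype (horizontal axis), with 1 point per array, a bar at the mean and whiskers of 1 SD (n = 3). In every panel the Ccr2-/- arrays lie highest and the wild type arrays lowest, and for Gfra2 the Ccl2-/- arrays lie close under the Ccr2-/- arrays.

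The rise that chose the genes ran from 1.36 on the log2 scale for Zdhhc15 (2.56-fold) to 1.52 for Gpx8 (2.87-fold), a narrow span beside standard errors of 0.10 to 0.17. Samd3, Ddx43 and Kcnj8 each stood at 1.48, Cldnd2 at 1.44, Clnk at 1.43, and Gfra2 and Clip4 at 1.39. Klra5, one of the Ly49 receptors of NK cells, ranked 1 with 2.03 and is not among the 9. Just outside stood F2rl2, a thrombin receptor family member, with 1.35 and Sytl3, a synaptotagmin-like protein, with 1.34, so the boundary at rank 10 separates values that differ by less than their standard errors. Ncr1 rose by 0.69 in the same contrast.

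Whether the loss of the ligand alone moved these genes was asked by comparing Ccl2-/- with wild type monocytes. The Ccl2-/- arrays had no part in the choice, but the wild type arrays did, so some lean towards higher values is built in. Gfra2 was 2.16-fold higher in Ccl2-/- monocytes (log2 change 1.11, standard error 0.10, 95% interval 0.88 to 1.34, limma adjusted p = 0.00857). It was the 1 gene of the 9 that passed, where 0.0752% of all genes passed as higher. Its call was lost without Ccl2-/- replicate 2 (adjusted p = 0.0670), without wild type replicate 1 (0.0710), without wild type replicate 3 (0.0559), with the replicate number as a block (0.0560) and in the fit of the 6 arrays compared (0.115), while the log2 change without any 1 array stayed between 1.04 and 1.23.

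For the other 8 genes the log2 change in Ccl2-/- over wild type monocytes was smaller and did not pass after adjustment over all genes in limma. Kcnj8 stood at 0.87 (standard error 0.17, adjusted p = 0.0862), Zdhhc15 at 0.77 (0.13, adjusted p = 0.0715), Clnk at 0.76 (0.12, adjusted p = 0.0637) and Clip4 at 0.70 (0.13, adjusted p = 0.0815). Ddx43 had 0.67, Samd3 0.62, Cldnd2 0.59 and Gpx8 0.57, with adjusted p of 0.0957 to 0.177. None of the 95% intervals of these 8 reached 0, the lowest bound being 0.22 for Gpx8, so the misses come after the adjustment over 19938 genes. At an unadjusted p under 0.05, all 9 were higher, against 6.78% of all genes. By the size limits of the study's methods, a ratio over 1.2 and a difference over 100 between group means, all 9 were again higher, against 7.84% of all genes. Ccl2-/- replicate 3 weighs on this result: without it 7 of the 9 passed in limma, Gfra2 among them, and 1.3% of all genes passed as higher in that fit.

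Ccr2-/- and Ccl2-/- monocytes were then compared directly, a comparison that shares the Ccr2-/- arrays with the choice of the genes. A lean towards higher values in Ccr2-/- is thus built in, and the share of all genes given beside the count was free of it. Here 6 of the 9 genes were higher in Ccr2-/- monocytes, where 0.732% of all genes were called higher. Gpx8 differed most, by 0.95 on the log2 scale or 1.93-fold (standard error 0.15, limma adjusted p = 0.0211). Samd3 was 1.81-fold higher (0.86, standard error 0.13, adjusted p = 0.0171), Cldnd2 1.80-fold (0.85, adjusted p = 0.0234), Ddx43 1.75-fold (0.81, adjusted p = 0.0276), Clip4 1.62-fold (0.69, adjusted p = 0.0307) and Clnk 1.60-fold (0.68, adjusted p = 0.0251). Kcnj8 at 0.61 (adjusted p = 0.0951), Zdhhc15 at 0.58 (adjusted p = 0.0561) and Gfra2 at 0.28 (standard error 0.10, 95% interval 0.05 to 0.51, adjusted p = 0.189) did not pass. These calls lean on single arrays: 0 of the 9 passed without Ccr2-/- replicate 1 or without Ccr2-/- replicate 2, 1 without Ccl2-/- replicate 3, and 2 without Ccr2-/- replicate 3 or wild type replicate 2. With the fit limited to the 6 arrays compared, 0 passed. Calls over all genes thinned in the same fits: 0.015% passed as higher without Ccr2-/- replicate 1, 0.01% without Ccr2-/- replicate 2, 0.0903% without Ccl2-/- replicate 3 and 0.015% with the 6 arrays.

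Both comparisons together placed the Ccl2-/- level of each gene between the other genotypes, and not at the same height. Gfra2 had most of its rise already in Ccl2-/- monocytes (1.11 over wild type, 0.28 left to Ccr2-/-), and Kcnj8 also had the larger share there (0.87, with 0.61 left to Ccr2-/-). Gpx8, Samd3, Cldnd2 and Ddx43 had the larger step between Ccl2-/- and Ccr2-/-. These 6 genes kept the same order of steps in all 17 alternatives. For Zdhhc15, Clnk and Clip4 it turned with the setting, in 2, 4 and 7 of the 17. Without Ccl2-/- replicate 1, Zdhhc15 had 0.66 in Ccl2-/- over wild type and 0.70 in Ccr2-/- over Ccl2-/- monocytes, and Clnk had 0.69 and 0.74. Whether the steps differ in size, or Gfra2 from the other genes in this, was not tested, and both steps share the Ccl2-/- arrays.

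**Figure D2:**
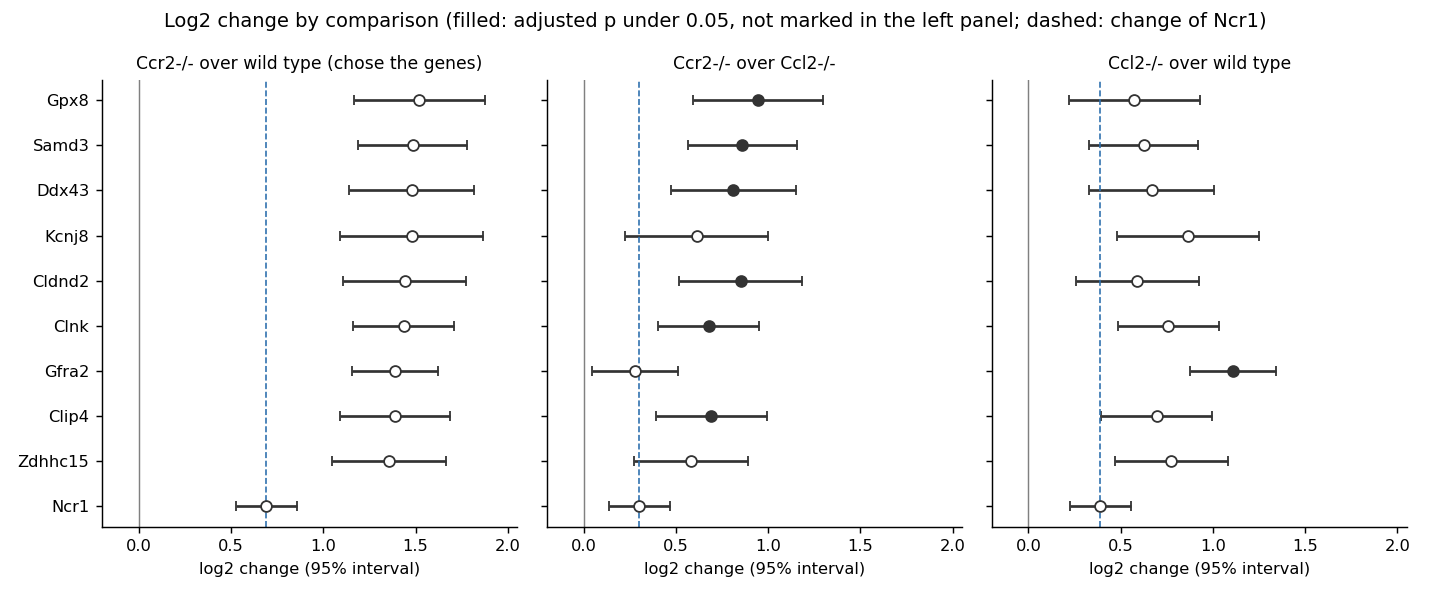
Log2 change with its 95% interval (horizontal axis) of the 9 genes and Ncr1 in the 3 comparisons, fitted with limma on all 9 arrays; filled points passed at an adjusted p under 0.05 and the dashed line is the change of Ncr1. No point is filled in the left panel, which holds the contrast that chose the genes. Gfra2 has its larger change in Ccl2-/- over wild type, 1.11, and Gpx8 in Ccr2-/- over Ccl2-/-, 0.95.

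Next, each gene was set against Ncr1 on the same array, by subtracting the log2 value of Ncr1 before the fit. The choice of the genes builds much of an excess over Ncr1 into this: their rise in Ccr2-/- over wild type monocytes exceeded that of Ncr1 by 0.67 to 0.83, and the excesses of the 2 steps must add up to that. What the choice left free is how the excess divides between the steps. The NK cell list had a median rise of 0.87 in that contrast, also above the 0.69 of Ncr1, so such an excess is not particular to the 9. Ncr1 was also a bright gene, with array values up to 13.41 where the highest log2 value of any gene was 14.30. The part of this in the excess was not tested. Ncr1 itself stood 0.39 higher in Ccl2-/- over wild type monocytes (standard error 0.07, limma adjusted p = 0.0788) and 0.30 higher in Ccr2-/- than in Ccl2-/- monocytes (adjusted p = 0.0613). In Ccl2-/- over wild type monocytes, 5 of the 9 rose more than Ncr1, where 0.266% of all genes did; 51.9% differed from Ncr1 in either direction. Gfra2 did so by 0.72 (limma adjusted p = 0.00493), Kcnj8 by 0.48 (0.0130), Zdhhc15 by 0.39 (0.0122), Clnk by 0.37 (0.0111) and Clip4 by 0.31 (0.0365). Without wild type replicate 1 this count was 2, and without Ccl2-/- replicate 2 it was 3.

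Between Ccr2-/- and Ccl2-/- monocytes, 7 of the 9 genes rose more than Ncr1, against 0.411% of all genes; 67.8% differed from Ncr1 in either direction. The count of 7 carries the excess built in by the choice, which used the Ccr2-/- arrays, and the share of all genes does not. The excess was 0.64 for Gpx8 (limma adjusted p = 0.00340), 0.56 for Samd3 (0.00455), 0.55 for Cldnd2 (0.00660), 0.51 for Ddx43 (0.0107), 0.39 for Clip4 (0.0120), 0.37 for Clnk (0.00839) and 0.28 for Zdhhc15 (0.0331). Kcnj8 exceeded Ncr1 by 0.31 without passing (adjusted p = 0.0512). Gfra2 was level with it, at -0.02 with a 95% interval of -0.20 to 0.16 (adjusted p = 0.789). The count stayed at 6 to 8 when any 1 array was left out.

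Whether the genes follow Ncr1 from array to array was asked within genotypes, since the genotype means were fixed by the choice. For each array the deviation from its genotype mean was taken, and the 9 deviations of a gene were correlated with those of Ncr1. The exact two-sided permutation test rearranged a gene's values within genotypes in every possible way, and the smallest p it can give is 0.00463. Kcnj8 followed Ncr1 most closely, with Pearson's r = 0.97 (exact permutation p = 0.00926) and Spearman's rho = 0.97 (exact permutation p = 0.00926). Zdhhc15 had r = 0.94 (exact permutation p = 0.0185) and rho = 0.83 (exact p = 0.0509), and Gpx8 had r = 0.94 (exact permutation p = 0.0185) and rho = 0.95 (exact p = 0.0139). Gfra2 had r = 0.90 (exact permutation p = 0.0463) and rho = 0.88 (exact p = 0.0324).

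The remaining genes had lower correlations with Ncr1. Clnk had r = 0.86 (exact permutation p = 0.0509) and rho = 0.83 (exact p = 0.0231), and Clip4 had r = 0.76 (exact permutation p = 0.125) and rho = 0.82 (exact p = 0.0509). Samd3 had r = 0.58 and rho = 0.70, Cldnd2 r = 0.57 and rho = 0.68, and Ddx43 r = 0.46 and rho = 0.33, with exact permutation p of 0.134 to 0.255 for r and 0.0741 to 0.375 for rho. Of the 9 correlations, 4 had an exact permutation p under 0.05 and 0 kept it after Benjamini-Hochberg adjustment over the 9 tests, the lowest adjusted value being 0.0556.

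Most genes share some of this movement. Over 19936 genes the median r with Ncr1 was 0.45, and 74.3% had an r above 0. An r as high as that of Kcnj8 was seen in 0.0702% of genes, as high as Zdhhc15 in 0.522%, as high as Gpx8 in 0.627%, as high as Gfra2 in 1.63% and as high as Clnk in 3.39%. For Clip4 the share was 11.5%, for Samd3 35.9%, for Cldnd2 37.1% and for Ddx43 49.1%, so the r of Ddx43 lay at about the median of all genes.

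The order of the genes depended on the scale. After each array was centred on its median, r was 0.96 for Cldnd2, 0.90 for Samd3 and Clip4, and 0.85 for Ddx43, while it was 0.43 for Kcnj8 and 0.36 for Gpx8. In the centred values 3 genes passed the adjusted test, Cldnd2, Samd3 and Ddx43, and an r as high was seen in 0.662%, 4.15% and 9.97% of all genes, against 45.7% for Kcnj8 and 48.4% for Gpx8. Quantile normalization went the other way, with r of 0.98 for Kcnj8, 0.96 for Gpx8 and 0.93 for Gfra2, but 0.21 for Cldnd2 and -0.01 for Ddx43. The array median was highest in Ccl2-/- replicate 1, at 430.8, and its part in this was not tested. The arrays farthest from the median in Ncr1 were Ccl2-/- replicate 3 and wild type replicate 1. Without them r was 0.76 for Kcnj8, 0.66 for Zdhhc15, 0.50 for Gpx8 and -0.25 to 0.40 for the others. Leaving out the extremes narrows the range of Ncr1, and with the 7 arrays left the smallest exact p possible is 0.0417, so this test has little power. The relation was thus not shown without those arrays.

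**Figure D3:**
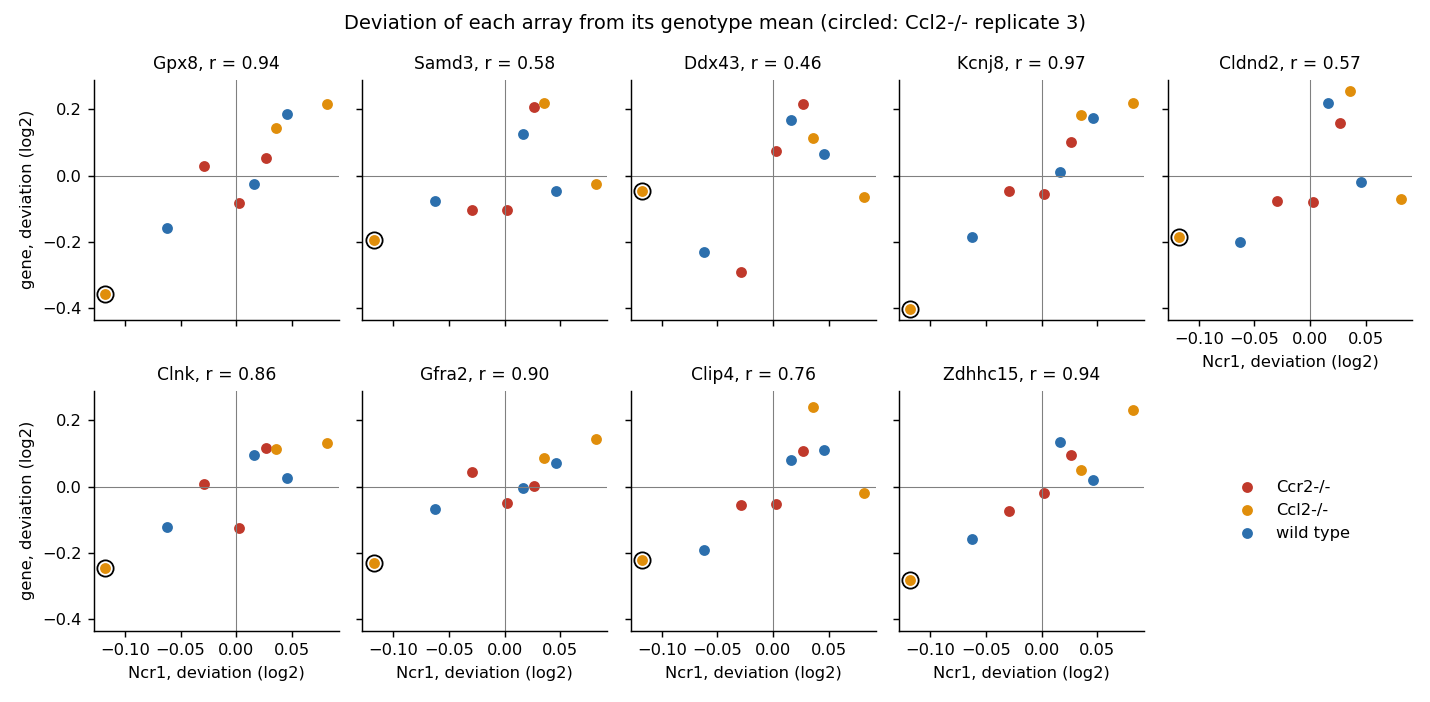
Deviation of each array from its genotype mean in Ncr1 (horizontal axis, log2) and in each of the 9 genes (vertical axis, log2), with 1 point per array and Ccl2-/- replicate 3 circled. The points of Kcnj8 (r = 0.97) lie along a line that ends at the circled array, and those of Ddx43 (r = 0.46) do not.

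Over the 36 pairs of the 9 genes, the correlation of within-genotype deviations ran from 0.10 to 0.98 with a median of 0.75, as a description over 9 arrays. Between the 9 genes and the 19928 other genes that could be compared the median was 0.17, and 6.86% of those pairs had an r of at least 0.75. After centring, the median was 0.77 over the 36 pairs and 0.08 with other genes. Without Ccl2-/- replicate 3 and wild type replicate 1 it was 0.28 over the 36 pairs and -0.05 with other genes, and 33.1% of the pairs with other genes were then as high as 0.28. The genes whose level was most like each of the 9 were sought among 17926 genes by Pearson's r over the 9 arrays, a measure that includes the genotype means. Cldnd2 was most like Gpr174 (r = 0.999), Clnk most like Ak3 (0.998) and Gimap5 (0.998), Kcnj8 most like Ctsw (0.998) and Adamts14 (0.998), and Zdhhc15 most like Klri2 (0.998) and Sytl3 (0.997). Sytl2 came second for Samd3 (0.995), Cldnd2 (0.994) and Clip4 (0.996) alike, behind Ptpn4 for Samd3 (0.995) and Atp1b1 for Clip4 (0.996). Gpx8 was most like Gimap1 (0.993) and Tcf3 (0.992), Ddx43 most like Nol8 (0.993) and Gbp8 (0.993), and Gfra2 most like Serpinb9b (0.995) and Lrp10 (0.994). By this measure Ncr1 ranked 6 for Zdhhc15, 12 for Clnk and 28 for Kcnj8, and between 55 and 189 for the others. Even at rank 189, for Cldnd2, Ncr1 had r = 0.96. Much of the difference between the genotype means was fixed by the choice of the genes. These r values and ranks are thus a description and no test of likeness.

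Some neighbours of the genes on their chromosomes also differed between genotypes. Of 18 neighbouring genes in the RefSeq order, 17 were measured. Of these, 5 were higher and 1 lower in Ccr2-/- over wild type monocytes, where 13.3% of all genes passed in either direction. In Ccl2-/- over wild type monocytes 0 passed in limma (4 at an unadjusted p under 0.05), where 0.16% of all genes did. Cdc20b, whose gene model overlaps Gpx8 on chromosome 13, was 1.29 higher on the log2 scale in Ccr2-/- than in wild type monocytes (limma adjusted p = 0.000829), 0.72 higher in Ccl2-/- over wild type monocytes (adjusted p = 0.0800) and 0.57 higher in Ccr2-/- than in Ccl2-/- monocytes (adjusted p = 0.0589). The sources used here do not place the probes of either gene, so the values of Gpx8 and Cdc20b are uncertain as separate measurements. On its other side, the cytotoxic protease gene Gzma rose by 0.36 in Ccr2-/- over wild type monocytes (adjusted p = 0.0190).

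Nkg7, a cytotoxic granule gene beside Cldnd2 on chromosome 7, rose by 0.49 in Ccr2-/- over wild type monocytes (limma adjusted p = 0.00263), and Etfb, whose model overlaps Cldnd2, had 0.23 (adjusted p = 0.111). Dok2, a signalling adaptor beside Gfra2, rose by 0.77 (adjusted p = 0.00168), and L3mbtl3 beside Samd3 by 0.26 (adjusted p = 0.0468, and 0.257 after centring). Beside Kcnj8 on chromosome 6, the lactate dehydrogenase subunit Ldhb fell by 1.47 (adjusted p = 0.000696) and was also lower in Ccr2-/- than in Ccl2-/- monocytes (-0.70, adjusted p = 0.0373, and 0.151 after centring). Abcc9, the sulfonylurea receptor SUR2 that pairs with the Kcnj8 pore and is its other neighbour, had mean log2 intensities of 7.83, 7.91 and 7.82 in Ccr2-/-, Ccl2-/- and wild type monocytes, with a change of 0.01 in Ccr2-/- over wild type monocytes (adjusted p = 0.985).

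Genes related to the 9 by family or pathway passed about as often as other genes. Of 146 measured relatives, 8 were higher and 15 lower in Ccr2-/- over wild type monocytes, together 15.8%, near the 13.3% of all genes. After centring each array on its median there were 7 and 8, where 8.44% of all genes passed in either direction. Without any 1 array there were 5 to 12 and 10 to 20. In Ccr2-/- over Ccl2-/- monocytes 1 was higher and 3 lower, where 3.6% of all genes passed in either direction (none of these 4 passed after centring), and in Ccl2-/- over wild type monocytes 0 passed in limma, with 11 higher and 11 lower at an unadjusted p under 0.05. Their median log2 change in Ccr2-/- over wild type monocytes was -0.02, beside 0.01 over all genes and 1.44 over the 9 genes. None of the 10 genes around Gfra2 passed in limma in any comparison (at most 3, in Ccl2-/- over wild type, at an unadjusted p under 0.05), its signalling partner Ret standing at mean log2 intensities of 7.78, 7.86 and 7.85 and its ligand neurturin (Nrtn) at 8.37, 8.55 and 8.47 in Ccr2-/-, Ccl2-/- and wild type monocytes. Of the 16 potassium channel genes around Kcnj8 and the 12 genes around Clip4, 0 passed in any comparison, with at most 1 and 2 at an unadjusted p under 0.05.

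Of the 15 immunoreceptor signalling genes around Clnk, 3 were higher and 3 lower in Ccr2-/- over wild type monocytes (13.3% of all genes passed in either direction), and 4 higher and 1 lower after centring (8.44% of all genes). The kinase Zap70 rose by 1.01 (limma adjusted p = 0.00120), the adaptor Skap1 by 0.78 (adjusted p = 0.00397) and the kinase Fyn by 0.42 (adjusted p = 0.00806). The kinase Syk fell by 0.31 (adjusted p = 0.0135), Map4k1 by 0.36 (adjusted p = 0.00389) and Skap2 by 0.57 (adjusted p = 0.00216). After centring, Syk (adjusted p = 0.0839) and Map4k1 (0.0621) no longer passed, and the adaptor Lat did (0.59, adjusted p = 0.0265). Lcp2, which encodes SLP-76, had -0.01 (adjusted p = 0.968).

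Of 22 other DHHC palmitoyltransferases, Zdhhc18 rose by 0.73 (limma adjusted p = 0.00138) and Zdhhc8 by 0.32 (adjusted p = 0.0168) in Ccr2-/- over wild type monocytes, and 5 fell, among them Zdhhc23 by 0.81 (adjusted p = 0.00240) and Zdhhc9 by 0.48 (adjusted p = 0.00604, and 0.0525 after centring). Of the 5, 3 still passed after centring. The 7 of 22 that passed in the values of the report are 31.8%, beside 13.3% of all genes. Zdhhc23 and Zdhhc9 were also lower in Ccr2-/- than in Ccl2-/- monocytes (-0.56, adjusted p = 0.0404, and -0.46, adjusted p = 0.0275). Of 14 peroxidase and oxidative folding genes around Gpx8, 4 fell in Ccr2-/- over wild type monocytes: the secreted peroxidase Gpx3 by 1.28 (adjusted p = 0.00415), the oxidase Ero1b by 0.57 (adjusted p = 0.00232), the lipid peroxidase Gpx4 by 0.51 (adjusted p = 0.00822) and the disulfide isomerase P4hb by 0.37 (adjusted p = 0.0266, and 0.103 after centring). The 4 of 14 are 28.6%, beside 13.3% of all genes. Ero1b was also lower in Ccr2-/- than in Ccl2-/- monocytes (-0.47, limma adjusted p = 0.0240). Of 32 other DEAD-box helicases, Ddx10 rose by 0.34 (adjusted p = 0.0121) and Ddx21 by 0.25 (adjusted p = 0.0405), and Ddx41 fell by 0.35 (adjusted p = 0.0232), and Ddx10 was 0.31 higher in Ccr2-/- than in Ccl2-/- monocytes (adjusted p = 0.0493). These 3 of 32 are 9.38%, below the 13.3% of all genes, and none of them passed after centring, nor without Ccr2-/- replicate 2, wild type replicate 1 or wild type replicate 2. Samd8 fell by 0.32 (limma adjusted p = 0.0107, and 0.155 after centring) among 9 genes of the Samd family. Among 16 genes around Cldnd2, Nkg7 rose as given above and the membrane protein Emp1 fell by 0.65 (adjusted p = 0.00654). The shares of these lists were 11.1% and 12.5%, near the 13.3% of all genes.

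The NK cell list moved in the same direction as the 9 genes and by less. Of its 45 measured genes, 42 were higher in Ccr2-/- over wild type monocytes, where 4.91% of all genes were called higher. The median log2 change of the list was 0.87. Gzmm (0.32, limma adjusted p = 0.389), Sh2d1b2 (0.49, adjusted p = 0.142) and Styk1 (0.55, adjusted p = 0.0535) did not pass. In Ccl2-/- over wild type monocytes 2 passed, where 0.0752% of all genes were called higher. These were the serpin Serpinb9b (0.93, limma adjusted p = 0.0334) and the NKG2A receptor Klrc1 (0.71, adjusted p = 0.0493, and 0.0660 after centring). The median was 0.47 over the list, 0.70 over the 9 genes and 0.08 over all genes. In Ccr2-/- over Ccl2-/- monocytes 7 passed, where 0.732% of all genes were called higher (16 and 0.953% after centring). Among the 7 were the Ly49 receptors Klra8 (1.07, limma adjusted p = 0.0154), Klra5 (1.69, adjusted p = 0.0159) and Klra3 (0.50, adjusted p = 0.0242). Another was the lectin receptor Klrc3 (0.63, adjusted p = 0.0183). The median was 0.37 over the list and 0.69 over the 9 genes, beside -0.08 over all genes. The members were chosen for a large rise and the list was not, so these medians are given without a test. Before any centring, none of the 15 T cell, 12 basophil and mast cell or 8 B cell genes measured passed in limma in any comparison, and at an unadjusted p under 0.05 there were 2, 0 and 1 in Ccr2-/- over wild type, 0, 7 and 3 in Ccl2-/- over wild type, and 1, 4 and 2 in Ccr2-/- over Ccl2-/- monocytes. Of 4 measured genes of other innate lymphoid cells 1 passed in Ccr2-/- over wild type monocytes and the rest did not, where 4.91% of all genes were called higher. It was the transcription factor Gata3, which rose by 1.09 (limma adjusted p = 0.00103). All 10 measured Ly-6Chi monocyte genes, Ccr2 among them, fell in Ccr2-/- over wild type monocytes, as did 11 of the 15 pan-monocyte genes (6 after centring), where 13.3% of all genes passed in either direction. Of the neutrophil genes 2 of 12 fell, and of the dendritic cell genes 2 of 10, where 1670 of all 19938 genes were called lower. Of the Ly-6Clo monocyte genes 3 of 16 rose (1 after centring, 1 without any one of the Ccr2-/- arrays), where 4.91% of all genes were called higher. Of 6 measured eosinophil genes only 1 passed, Ccr3 (0.96, limma adjusted p = 0.000793), whose protein was a target of the depletion. Ccr3 was also 1.17 higher in Ccr2-/- than in Ccl2-/- monocytes (limma adjusted p = 0.00454). In Ccl2-/- over wild type monocytes it had -0.20 (limma adjusted p = 0.427), and the cause of its rise was not tested. None of the 7 platelet or 5 erythroid genes passed in any comparison (1 of each in Ccr2-/- over wild type at an unadjusted p under 0.05). The part of these shifts in the rise of the 9 genes was not tested.

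**Figure D4:**
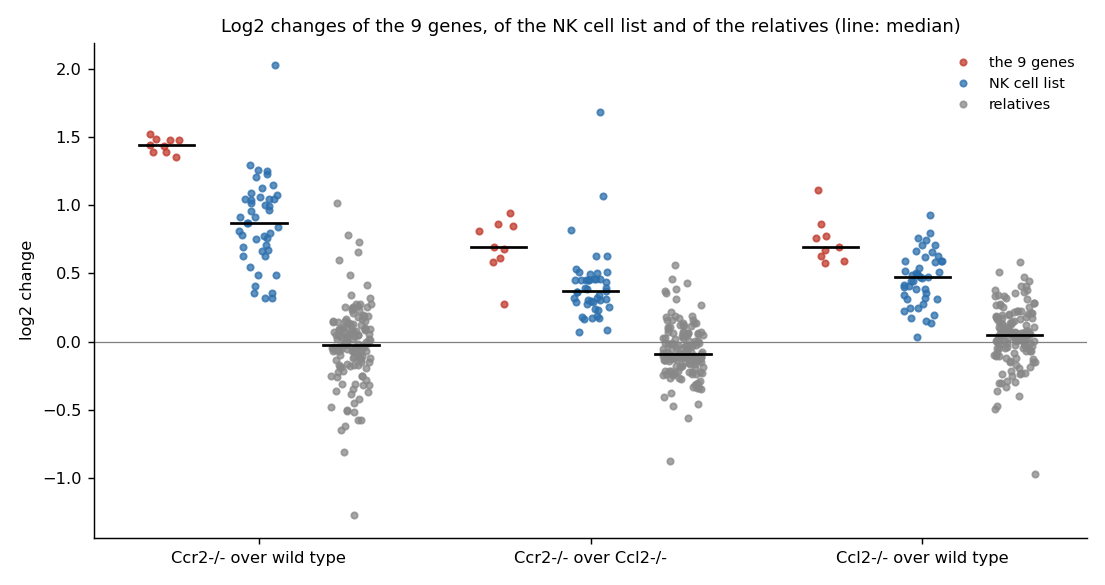
Log2 change (vertical axis) of the 9 genes, the 45 NK cell genes and the 146 relatives in the 3 comparisons (horizontal axis), with 1 point per gene and a line at each median. In Ccr2-/- over wild type, the contrast that chose the 9 genes, the medians are 1.44 for them, 0.87 for the NK cell list and -0.02 for the relatives; in Ccl2-/- over wild type they are 0.70, 0.47 and 0.05.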

How the data were processed

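Monocyte RNA of 3 genotypes, 3 arrays each, was measured on Affymetrix Mouse Gene 1.0 ST arrays. The deposited values are linear intensity values from dChip, as run by the authors, whose version, normalization and expression model are not given in the sources used here. No step was applied between arrays in the values of the report. Of 35512 transcript clusters, 21789 carry 1 gene symbol in the platform annotation, 1621 several and 12102 none, and for the 999 genes that have more than 1 cluster the one with the highest mean log2 value was taken, which gave 19938 genes. Values below 1 (19 values) were set to 1 before log2.

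All 9 arrays were fitted with limma 3.58.1 in R 4.3.3 (lmFit and eBayes), with p-values adjusted by Benjamini-Hochberg over all genes of a comparison. A call is a two-sided adjusted p under 0.05. The fit and the permutation test were checked on simulated data. The study's methods name size limits but no test across arrays. Arrays have no read depth, and their number limits the precision. The genes, the 22 gene lists and the tests were chosen with earlier results of these data known. Genes named in the text are the 9, Ncr1, Ccr2, the 2 most alike genes (mean intensity over 100, predicted genes left out), the neighbours, the genes ranked next to the 9, and called genes of the lists, up to 4 per list and comparison; Gata3, Ccr3, Lcp2, Ret, Nrtn, Emp1 and the NK cell genes that did not pass were named after their values were seen. The alternatives were quantile normalization, centring on the array median, a mean intensity over 100, an offset of 50 added to the values, averaging the clusters of a gene, an intensity trend, fits of 6 arrays, each array left out in turn, and the replicate number as a block.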

Additional observations from a re-analysis of the deposited data

How the results depend on the processing

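No log2 change of the 9 genes reversed under any alternative, though some of the alternatives leave these log2 changes as they are. In Ccl2-/- over wild type monocytes, the number of the 9 genes that passed in limma was 2 with quantile normalization, 3 with an offset of 50, 6 with an intensity trend, 0 with the replicate block and 0 with the fit of the 6 arrays, and 0 to 7 when any 1 array was left out, against 1 as reported; of all genes 61, 105, 366, 7 and 2 passed under these settings and 6 to 476 without any 1 array, against 32. In Ccr2-/- over Ccl2-/- monocytes, 0 of the 9 passed with the replicate block and 0 with the fit of the 6 arrays, and 0 to 8 without any 1 array, against 6; of all genes 167 and 17 passed under these, 273 after centring, 1344 with an intensity trend and 22 to 1189 without any 1 array, against 718. The replicate numbers were not taken to pair arrays: 4 of 9 correlations between arrays of the same number were over 0.1, and 3 of 9 arrays were closest to their own number. In Ccr2-/- over wild type monocytes 1683 genes passed after centring and 1663 to 3479 without any 1 array, against 2648. Relative to Ncr1, 2 to 7 genes rose more in Ccl2-/- over wild type and 6 to 8 in Ccr2-/- over Ccl2-/- monocytes without any 1 array. All 9 stayed past the size limits under every setting run. Of the NK cell list, 37 to 44 genes were higher in Ccr2-/- over wild type, 0 to 29 in Ccl2-/- over wild type and 0 to 24 in Ccr2-/- over Ccl2-/- monocytes over all settings. After adjustment over the 9 tests, 3 genes followed Ncr1 in centred values and 3 with the NK cell list in place of Ncr1, and 0 to 3 without any 1 array, the 3 without Ccr2-/- replicate 3, against 0. The cause of these shifts was not tested, except that fits of 6 arrays have fewer arrays to estimate the spread. Signal over background was not tested: a mean intensity over 100, which all 9 genes had, was also reached by most other genes, and no background values were used here.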
